A study of Mus musculus with 12 samples.

Results

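Oxidative phosphorylation genes were followed in sorted mouse T cells with and without azacitidine (AzaC), a cytidine analogue that inhibits DNA methyltransferases. The genes were all those measured by 1 array row with exactly 1 gene symbol (the brightest row where a gene had several) whose symbol starts with Ndufa, Ndufb, Ndufc, Ndufs, Ndufv, Sdha to Sdhd, Uqcr, Cox4i, Cox5, Cox6, Cox7, Cox8 or Atp5, or that encode a protein in the mitochondrial genome. This gave 103 of the 22180 genes measured, 93 encoded in the nucleus and 10 in the mitochondrial genome. The prefix mt- occurs nowhere in the array's annotation, so the mitochondrial genes were found by gene identifier and carry the annotation's names (ND1 for mt-Nd1, and so on). The nuclear genes comprise 34 of complex I, 4 of complex II, 8 of complex III, 17 of complex IV, 18 of complex V and 12 assembly factors (Ndufaf and Sdhaf genes, which share the prefixes); 2 of the 93, Atp5c1-ps and Uqcrh-ps1, are pseudogenes.

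The study measured RNA on 12 Affymetrix arrays, 3 in each of 4 groups. Regulatory T cells taken from spleen (nTregs, of Foxp3-GFP mice) were co-cultured at 1:10 with T cells depleted of Tregs (from Foxp3-GFP mice crossed to DsRed mice), activated for 2 days with CD3/CD28 beads and interleukin 2, and given PBS or 1 µM AzaC for 2 more days. CD4+ effector cells (DsRed+ GFP-, called CD4 cells here) and nTregs (CD4+ DsRed- GFP+) were then sorted. The groups are CD4 cells with PBS, CD4 cells with AzaC, nTregs with PBS and nTregs with AzaC. All arrays carry 1 strain label, a cross of B6.Foxp3GFP and B6.Cg-Tg(CAG-DsRed*MST)1Nagy/J, although the culture protocol takes the nTregs from mice without DsRed. The DsRed transgene is driven by the CAG promoter, which is active in most cells, and the GFP reports Foxp3. All groups share the activation, interleukin 2 and the presence of the other population during treatment. Ages are not given in the sources used here, nor is the origin of the 3 arrays of a group (1 animal or culture, or several), so the p-values cover only the spread among these samples, which may be technical.

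Oxidative phosphorylation passes electrons from NADH (complex I) and succinate (complex II) through complexes III and IV to oxygen, and complex V uses the proton gradient so made to form ATP. Complexes I, III, IV and V combine subunits from both genomes, while complex II is wholly nuclear. The mitochondrial genes are transcribed as long polycistronic RNAs and cut apart; ND6 is the only protein gene transcribed from the light strand. Activated effector T cells rely strongly on glycolysis, and Tregs are known for a greater use of oxidative phosphorylation.

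Promoter sequence was examined because AzaC acts on the methylation of CpG, and because NRF1, GABPA and YY1 are known regulators of respiratory chain genes. RefSeq promoter windows of 300 bases (250 before the start to 50 after it, build GRCm38.p6) were found for 76 of the 93 nuclear genes, in 81 windows. The NRF1 motif (the letters in capitals below with the sixth base free, both strands) lay in 24.7% of them against 4.6% of all 32851 windows. The GABPA motif (CCGGAAG, both strands) lay in 27.2% against 8.86%, and the YY1 motif (AAGATGGCG, both strands) in 8.64% against 1.4%. The median window of these genes held 20 CpG against 7 in all windows. Each of these motifs contains a CpG, and the windows compared were not matched for CpG. All windows cover 27025 genes and were not limited to the genes measured here. A match here is a description of the sequence and not a bound site. The stretch around the NRF1 motif of Cox6a1, a ubiquitous complex IV subunit, is shown as an example, with the motif in capitals (GRCm38.p6, chr5:115349081-115349150, minus strand).
Cox6a1: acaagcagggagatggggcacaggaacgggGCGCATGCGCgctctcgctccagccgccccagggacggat

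The 3 nuclear genes on chromosome 7 whose RNA passed a test below are shown next, as the 130 bases before each start with CpG in capitals. They are Cox6b2 (chr7:4753095-4753224, minus strand), Cox7a1 (chr7:30184041-30184170, plus strand) and Sdhaf1 (chr7:30322376-30322505, minus strand), all in GRCm38.p6.
Cox6b2: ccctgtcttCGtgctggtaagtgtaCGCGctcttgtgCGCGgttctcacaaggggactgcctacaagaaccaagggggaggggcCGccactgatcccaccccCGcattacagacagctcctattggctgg
Cox7a1: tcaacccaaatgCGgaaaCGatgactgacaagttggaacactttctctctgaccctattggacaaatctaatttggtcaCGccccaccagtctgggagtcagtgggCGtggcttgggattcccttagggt
Sdhaf1: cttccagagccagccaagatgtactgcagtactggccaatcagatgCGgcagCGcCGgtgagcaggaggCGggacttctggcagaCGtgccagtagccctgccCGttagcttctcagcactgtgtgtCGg
The whole 300-base window of Cox6b2 held 10 CpG, more than 56.5% of all windows, and that of Cox7a1 held 7, more than 47.9%. The Sdhaf1 window held 17, more than 68.6%, together with a GABPA motif. All 3 lay below the median of 20 of the nuclear genes. Methylation was not measured in these samples.

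Values are log2 signals, and a difference of 1 is a doubling of signal. Signals of different genes come from different probes, so their order says nothing of RNA amounts. Foxp3, the defining Treg factor, was higher in nTregs by 4.29 under PBS and 3.08 with AzaC and all 5 Treg markers were higher. The array nTreg PBS 1 stood apart: it correlated with the rest at a mean of 0.972, where each of the others reached 0.979 to 0.987, and it was the highest of the 12 arrays for 59 of the 93 nuclear genes (63.4%, against 20.9% of all genes). CD4 AZA 1 was the lowest for 43 of the 93 (46.2%, against 11.1% of all genes) and the highest for 6 of the 10 mitochondrial genes. Values that moved most without one of these arrays are therefore given both ways. CD4 PBS 3 had the next lowest mean correlation (0.979). It was the lowest for 4 of the 10 mitochondrial genes, 13 of the 93 nuclear genes (14%) and 17.1% of all genes. Values without CD4 PBS 3 are given only for some results.

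Across the 5 comparisons of the design, 4 of the 93 nuclear genes passed the test in at least 1 (Cox6b2, Cox7a1, Sdhaf1 and Ndufaf6), none of the 10 mitochondrial genes did, and 99 of the 103 passed in none. The threshold for a call was an adjusted p under 0.05 in limma (Benjamini-Hochberg, all 22180 genes). Single comparisons called 0.203% to 8.01% of all genes, and the share called in at least 1 of the 5 was not computed. Of the 4 genes, 3 lie on chromosome 7, which holds 10 of the 93. The share of chromosome 7 among all called genes was not computed. The median SE of a nuclear gene's difference was 0.14.

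**Figure D1:**
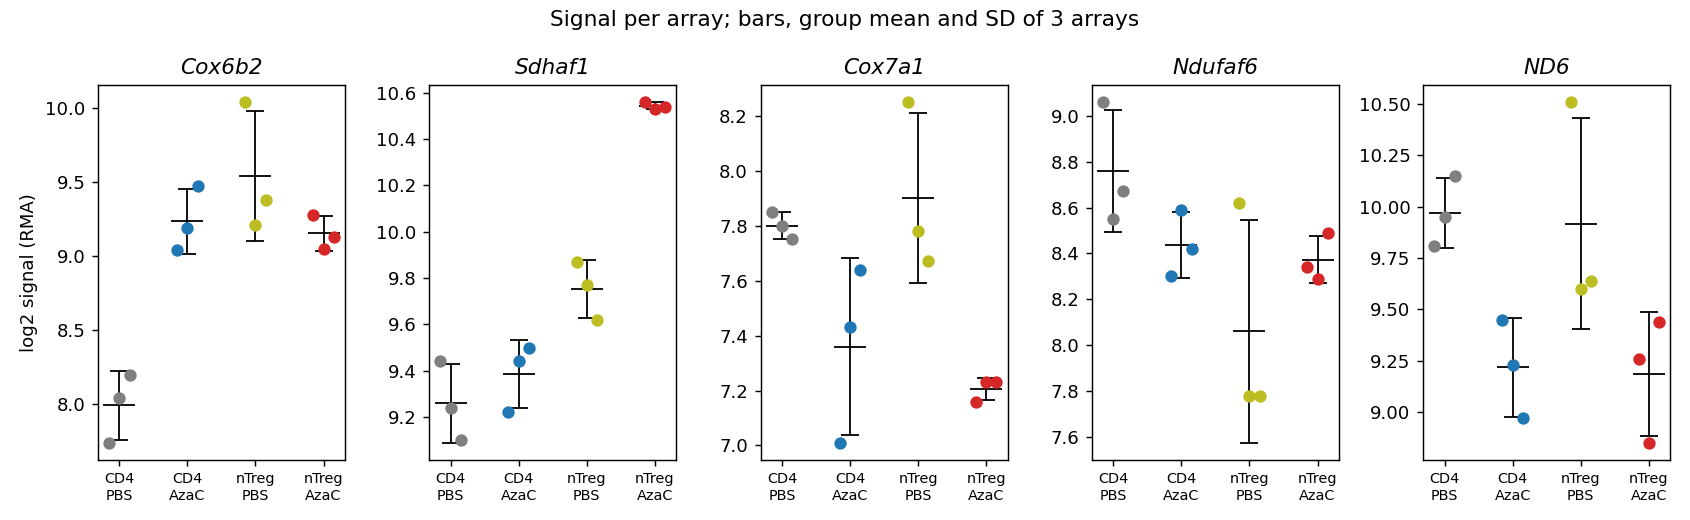
Log2 signal (vertical axis, a separate scale for each gene) on each array in the 4 groups, for the 4 nuclear genes that passed a test and ND6; points are arrays, bars the group mean and SD of 3 arrays. Sdhaf1 is highest on the 3 nTreg AzaC arrays (10.53 to 10.56), Cox6b2 lowest on the 3 CD4 PBS arrays (7.74 to 8.20), and ND6 lower with AzaC in both populations.

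Cox6b2 encodes the testis isoform of the complex IV subunit COX6B. In CD4 cells its log2 signal was 7.74, 8.04 and 8.20 with PBS and 9.04, 9.19 and 9.47 with AzaC. It was 10.04, 9.21 and 9.38 in nTregs with PBS and 9.28, 9.05 and 9.13 in nTregs with AzaC. The CD4 PBS arrays lay below all 9 others, which overlapped among themselves. Cox6b2 rose with AzaC in CD4 cells by 1.24 (SE 0.19, adjusted p = 0.00401, limma), a 2.36-fold change, and was higher in PBS-treated nTregs than in PBS-treated CD4 cells by 1.55 (SE 0.19, adjusted p = 0.00017), or 2.93-fold. With AzaC the populations differed by −0.08 (SE 0.19, adjusted p = 0.849), and in nTregs AzaC moved the gene by −0.39 (SE 0.19, adjusted p = 0.317). The difference between the AzaC effects passed at −1.63 (SE 0.27, adjusted p = 0.0292), and was lost when any of the 9 arrays other than the nTreg PBS arrays was left out (adjusted p up to 0.102). Without nTreg PBS 1, the highest array for this gene, the AzaC difference in nTregs was −0.14 (adjusted p = 0.741). The population difference under PBS was then 1.30 (adjusted p = 0.000107), and the difference between the AzaC effects was −1.38 and still passed (adjusted p = 0.0118).

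Other genes moved with Cox6b2 in CD4 cells. Foxp3 and Il2ra, 2 of the 5 Treg markers, rose there with AzaC by 1.57 and 0.59 (adjusted p = 0.000207 and 0.00383). The others, Ikzf2, Tnfrsf18 and Ctla4, differed there by 0.06, 0.06 and −0.16, and none was called. The Treg markers' summed signal was 13.38 to 13.40 in CD4 cells with PBS, 13.77 to 13.85 in CD4 cells with AzaC and 14.40 to 14.61 in nTregs with PBS. This sum is the log2 of added linear signals, so the brightest markers, such as Il2ra, weigh most in it. Nkg7, a cytotoxic granule gene, rose in CD4 cells by 0.75 (adjusted p = 0.0101) and in nTregs by 0.57 (adjusted p = 0.0424). Ncr1 and Klrb1c, the other natural killer markers measured, differed by 0.26 and 0.15 in CD4 cells. In nTregs they differed by −0.12 and −0.50, the other way from Nkg7, and neither was called. The part of these genes in the Cox6b2 result was not tested.

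The ubiquitous isoform Cox6b1 showed no such pattern. Its signal was 10.47, 10.47 and 10.14 in CD4 cells with PBS and 9.89, 10.34 and 10.47 with AzaC, and these overlap. The other isoforms of restricted tissue expression were Cox4i2 (lung), Cox6a2, Cox7a1 and Cox8b (heart and muscle), Cox8c (testis) and Ndufa4l2 (hypoxia-induced, and counted with complex I by its prefix). With Cox6b2 these 7 had differences of −0.69 to −0.02 with AzaC in nTregs, and 1 was above 0 without nTreg PBS 1. In CD4 cells 4 of 7 were above 0. Over all genes 41.9% were above 0 in nTregs and 52.8% in CD4 cells. By mean signal, Cox4i2, Cox8b, Cox8c and Ndufa4l2 were dim, at percentiles 42.9, 30.5, 21.4 and 19.4 of all genes. Cox6a2, Cox7a1 and Cox6b2 stood at 55.1, 60.5 and 80.6. Cox7b2, another testis isoform, was not among the 7, stood at percentile 3 and differed by 0.03 in nTregs. Apart from Cox6b2 and Cox7a1 none passed in any comparison, and their differences under AzaC lay between −0.23 and 0.21.

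Cox7a1 fell with AzaC in nTregs by 0.69 on the log2 scale, from 8.25, 7.78 and 7.67 to 7.16, 7.23 and 7.23. The groups did not overlap (adjusted p = 0.0444, limma). In CD4 cells the values were 7.85, 7.80 and 7.75 with PBS and 7.01, 7.43 and 7.64 with AzaC, again without overlap, but the difference of −0.44 (SE 0.16) did not pass (adjusted p = 0.217). The call in nTregs was lost in 13 of 21 alternatives, among them the fits without nTreg PBS 1 (−0.52, adjusted p = 0.103) and without each nTreg AzaC array (adjusted p = 0.134 to 0.143). Averaged over both populations, a comparison added after the ND6 values had been seen, Cox7a1 changed by −0.57 (SE 0.12, adjusted p = 0.0124) and stayed called in all 20 alternatives run.

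Sdhaf1 is an assembly factor for complex II, needed to mature its iron-sulfur subunit. Its signal was 10.56, 10.53 and 10.54 in nTregs with AzaC and 9.87, 9.77 and 9.62 in nTregs with PBS. In CD4 cells it was 9.44, 9.24 and 9.10 with PBS and 9.22, 9.44 and 9.50 with AzaC. The nTreg AzaC arrays were above all others, the nTreg PBS arrays next, and the CD4 groups overlapped. Sdhaf1 rose with AzaC in nTregs by 0.79 (SE 0.12, adjusted p = 0.00264, limma), and the difference in CD4 cells was 0.13 (SE 0.12, adjusted p = 0.618). It was higher in nTregs than in CD4 cells by 0.50 with PBS (SE 0.12, adjusted p = 0.0172) and by 1.16 with AzaC (SE 0.12, adjusted p = 2.26e-05), a 2.23-fold difference. The AzaC effects of the 2 populations did not differ by the test of their difference (0.66, SE 0.16, adjusted p = 0.133). The difference under PBS was lost without CD4 PBS 2 (0.49, adjusted p = 0.0581), without CD4 PBS 3 (0.42, adjusted p = 0.0718), with these groups fitted alone (adjusted p = 0.0951) and with the mean over the gene's 2 rows (0.25, adjusted p = 0.151).

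Of the genes near Sdhaf1, Syne4 was not called in any comparison, while Alkbh6 was higher in nTregs than in CD4 cells with AzaC by 0.92 (adjusted p = 0.000144). Markers of CD8 T cells moved with this contrast too. Cd8a and Cd8b1 both rose in nTregs with AzaC, and their summed signal was 10.35 to 10.69 in nTregs with PBS and 11.24 to 11.37 with AzaC, against 9.74 to 10.40 in CD4 cells. The part of these markers in the Sdhaf1 result was not tested. In these bulk samples, fewer cells of a type and less RNA per cell cannot be told apart.

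Ndufaf6 is an assembly factor of complex I. It was 9.06, 8.55 and 8.67 in CD4 cells and 8.62, 7.78 and 7.78 in nTregs with PBS, and so overlapped through nTreg PBS 1. The difference of −0.70 (SE 0.20) passed (adjusted p = 0.045), and was −0.98 without that array. The call was lost in 13 of 21 alternatives (adjusted p up to 0.188), among them every fit that left out an array other than nTreg PBS 1. With AzaC the gene was 8.34, 8.29 and 8.49 in nTregs and 8.30, 8.59 and 8.42 in CD4 cells, which overlap.

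**Figure D2:**
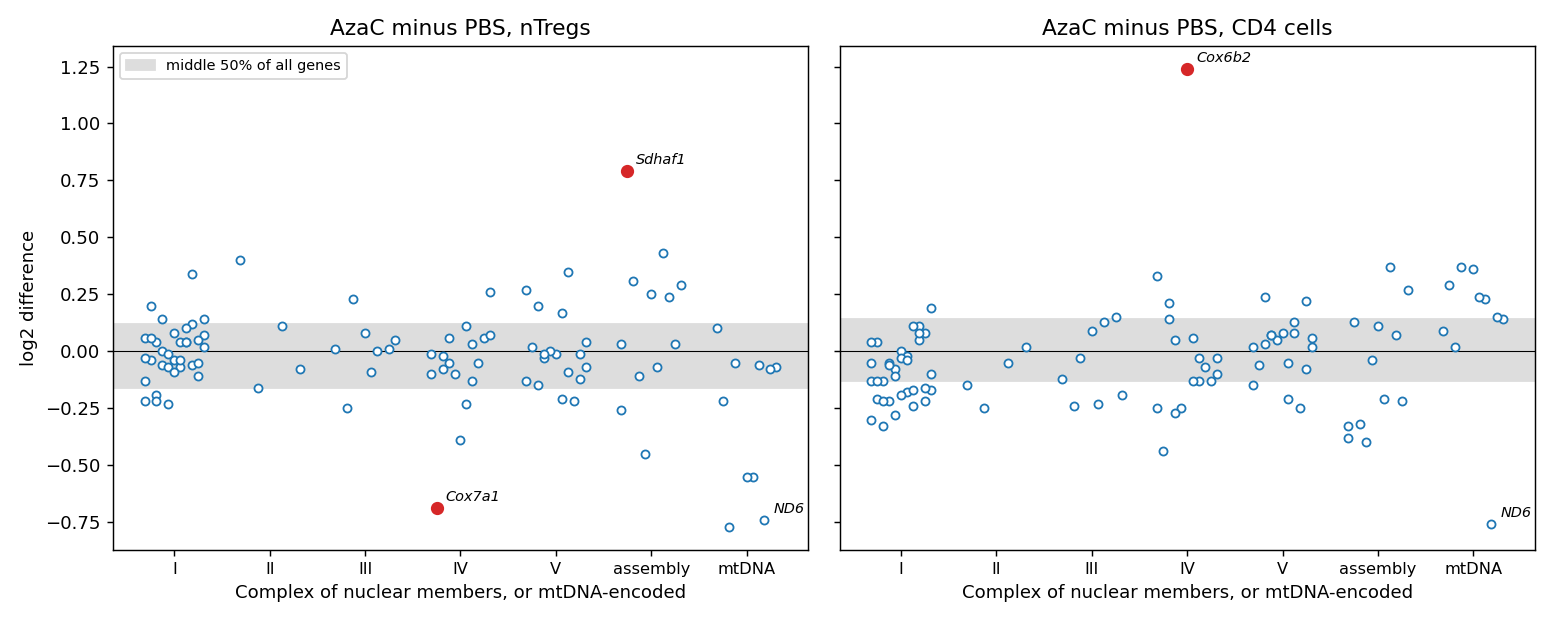
Log2 difference (vertical axis) of AzaC minus PBS for the 93 nuclear genes by complex and the 10 mitochondrial genes, in nTregs (left) and CD4 cells (right); filled points passed at adjusted p under 0.05 and the grey band spans the quartiles of all genes. Of the nuclear genes, 91 of 93 in nTregs and 92 of 93 in CD4 cells lie within 0.5 of 0.

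With AzaC in nTregs, 1 nuclear gene rose (Sdhaf1) and 1 fell (Cox7a1), against 2.02% of all genes called, a share near the background. At an unadjusted p under 0.05 stood 10 of the 93, against 16.8% of all genes. Of the 93, 45 were above 0, with a median of −0.01 (all genes −0.04, 41.9% above 0). In CD4 cells 1 was called (Cox6b2), against 1.76% of all genes, and 7 stood at an unadjusted p under 0.05, against 15.2%. There 36 of 93 were above 0, with a median of −0.05 (all genes 0.01, 52.8% above 0). For the difference between these effects, 1 was called (Cox6b2) against 0.203% of all genes, 6 stood at an unadjusted p under 0.05 against 17.5%, and the median was 0.06 (all genes −0.04).

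These nuclear medians moved with single arrays. Without nTreg PBS 1, 71 of the 93 were above 0 with AzaC in nTregs, with a median of 0.12, while all genes had 44.1% above 0 and a median of −0.03. Sdhaf1 was still called and Cox7a1 was not. Without CD4 AZA 1, 51 of the 93 were above 0 in CD4 cells with a median of 0.02 (all genes 0.01). The median of the interaction was 0.17 without nTreg PBS 1 and −0.02 without CD4 AZA 1.

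**Figure D3:**
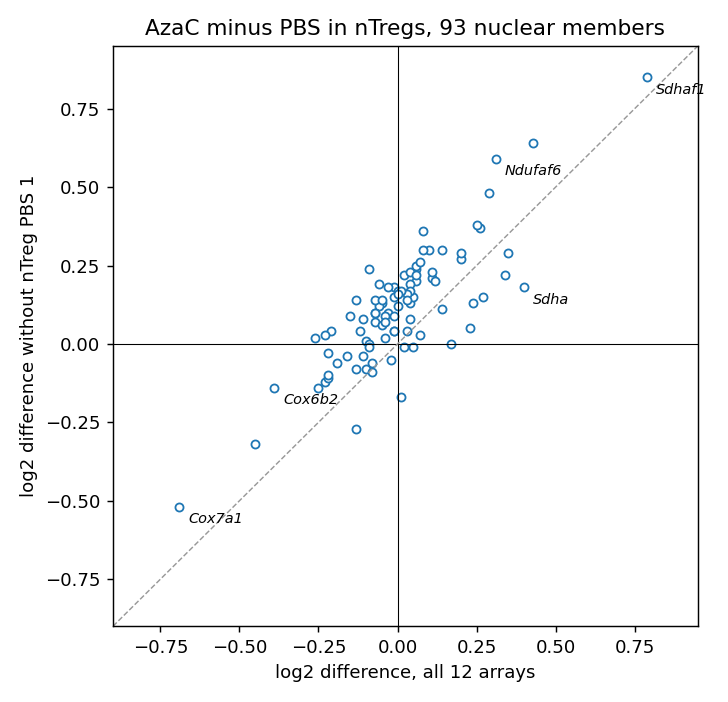
Log2 difference of AzaC minus PBS in nTregs for the 93 nuclear genes, from all 12 arrays (horizontal) and without nTreg PBS 1 (vertical); the dashed line marks equal values. Most points lie above the line, and the number above 0 goes from 45 to 71.

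By complex, no nuclear subunit of complexes I, II, III or V passed with AzaC in either population or in the difference between them. In complex I, 17 of 34 were above 0 in nTregs and 9 of 34 in CD4 cells, with medians of −0.01 and −0.11. With nTreg PBS 1 left out, 28 of 34 were above 0 in nTregs, with a median of 0.14, beside 44.1% of all genes, and without CD4 AZA 1, 18 of 34 were in CD4 cells, with a median of 0.01. Ndufv1, the NADH-binding subunit, had the smallest p in nTregs (0.34, SE 0.12, adjusted p = 0.17; 0.22 without nTreg PBS 1), and Ndufv3 in CD4 cells (−0.30, SE 0.13, adjusted p = 0.297). Ndufa1, a small accessory subunit, differed by 0.06 and −0.05.

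Sdha, the flavoprotein of complex II that oxidises succinate, was 11.37, 11.34 and 11.37 in CD4 cells with PBS and 11.30, 11.38 and 10.96 with AzaC. In nTregs it was 10.39, 11.07 and 11.03 with PBS and 11.26, 11.22 and 11.22 with AzaC. The lowest value is nTreg PBS 1, yet the other nTreg PBS arrays also lay below the nTreg AzaC arrays. The AzaC difference in nTregs was 0.40 (SE 0.16, adjusted p = 0.228), and the difference between populations under PBS was −0.53 (SE 0.16, adjusted p = 0.0599), neither of which passed. They were 0.18 (adjusted p = 0.548) and −0.31 (adjusted p = 0.161) without nTreg PBS 1. In complex III, Uqcrh, the hinge protein, differed by −0.25 in nTregs and −0.24 in CD4 cells (SE 0.11 each, adjusted p = 0.262 and 0.303). Its arrays did not overlap between PBS and AzaC in either population, but without nTreg PBS 1 the nTreg difference was −0.14.

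In complex IV, 6 of 17 were above 0 in each population, and without nTreg PBS 1, 10 of 17 were in nTregs. Cox4i1, the ubiquitous isoform of subunit 4, differed by −0.10 in nTregs and −0.25 in CD4 cells (−0.13 without CD4 AZA 1), and neither passed. In complex V, Atp5b, the catalytic beta subunit, was 12.47, 12.68 and 12.66 in nTregs with PBS and 12.90, 12.99 and 12.98 with AzaC. These did not overlap, and the difference of 0.35 (SE 0.11) had an adjusted p of 0.118. Of the 18 complex V genes, 6 were above 0 in nTregs with a median of −0.01, and 12 in CD4 cells with a median of 0.04. The nTreg count was 16 with a median of 0.08 without nTreg PBS 1, and the CD4 count was 15 with a median of 0.14 without CD4 AZA 1. Among the 12 assembly factors 8 were above 0 in nTregs, or 11 without nTreg PBS 1, and 5 in CD4 cells.

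Between populations under PBS, 3 of the 93 nuclear genes were called (Cox6b2 and Sdhaf1 higher and Ndufaf6 lower in nTregs), a smaller share than the 8.01% of all genes. At an unadjusted p under 0.05 stood 17, against 23.0% of all genes. Of the 93, 56 were above 0 with a median of 0.09 (all genes 0.03), but without nTreg PBS 1 only 34 were, with a median of −0.04 (all genes 0.01). In that fit Cox6a1 and Ndufa10, both lower in nTregs, were called beside the 3, while 7.25% of all genes were called. With AzaC, 1 was called (Sdhaf1), against 6.75% of all genes, and 9 stood at an unadjusted p under 0.05, against 20.5%. There 69 of 93 were higher in nTregs, with a median of 0.10, while all genes had 42.3% above 0 and a median of −0.04. Without CD4 AZA 1, 57 of 93 were above 0 with a median of 0.04 (all genes −0.03). Without nTreg PBS 1, which enters this comparison only through the shared spread, Ndufa4, Ndufaf1, Ndufb3, Sdhaf4 and Uqcrh were called beside Sdhaf1, while 11.1% of all genes were called in that fit. Ndufa4, a subunit now placed in complex IV, was then higher in nTregs by 0.52 (adjusted p = 0.00392). These comparisons share arrays, and the 2 population differences and 2 AzaC effects are not independent.

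None of the 10 mitochondrial genes was called in any of the 5 comparisons. At an unadjusted p under 0.05 stood 3 with AzaC in nTregs, 2 in CD4 cells, 3 in the interaction, 0 between populations under PBS and 2 with AzaC. The shares of all genes were 16.8%, 15.2%, 17.5%, 23.0% and 20.5% in the same order. Of the 10, 1 was above 0 with AzaC in nTregs (COX1) and 9 in CD4 cells, with medians of −0.15 and 0.19, and the interaction had a median of −0.35. Over all genes 41.9% were above 0 in nTregs and 52.8% in CD4 cells. Without nTreg PBS 1 the nTreg count was 3 with a median of −0.08, and without CD4 AZA 1 the CD4 count was 8 with a median of 0.07. Over the fits that left out 1 array, CD4 PBS 3 among them, the CD4 median was 0.07 to 0.3. Between populations 7 of the 10 were above 0 under PBS, with a median of 0.10, and 1 with AzaC, with a median of −0.28. Without CD4 AZA 1 the count with AzaC was 2 with a median of −0.11. With AzaC 69 of the 93 nuclear genes and 42.3% of all genes were above 0. The genes share polycistronic transcripts and arrays, so they are not independent.

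**Figure D4:**
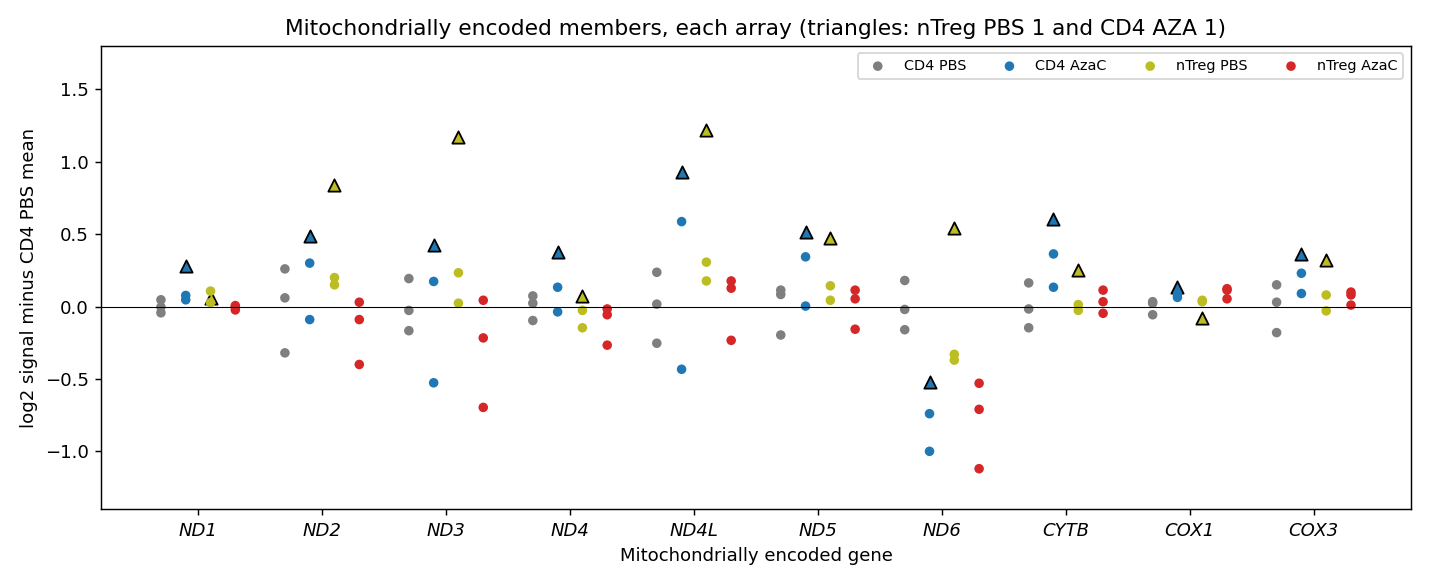
Log2 signal of each mitochondrial gene on each array minus that gene's mean in CD4 cells with PBS; colours are the 4 groups and triangles mark nTreg PBS 1 and CD4 AZA 1. ND6 is below 0 on all 6 AzaC arrays, and also on CD4 PBS 1 and 2 and nTreg PBS 2 and 3. A triangle is the highest point for each of the 10 genes.

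ND6 encodes a membrane subunit of complex I. It was 9.81, 9.95 and 10.15 in CD4 cells with PBS and 9.45, 9.23 and 8.97 with AzaC. In nTregs it was 10.51, 9.60 and 9.64 with PBS and 9.26, 8.85 and 9.44 with AzaC. No AzaC array reached a PBS array in either population. The differences were −0.76 in CD4 cells and −0.74 in nTregs (SE 0.22 each), and neither passed alone (adjusted p = 0.118 for both, limma). The difference between them was 0.02 (SE 0.32). Averaged over both populations, a comparison chosen after these values were seen, ND6 fell by 0.75 on the log2 scale (adjusted p = 0.0162), against 3.71% of all genes called and 15.2% at an unadjusted p under 0.05. That call was lost without CD4 AZA 3 (adjusted p = 0.0523) or nTreg AZA 2 (adjusted p = 0.0515). Without nTreg PBS 1, the difference in nTregs was −0.44 (SE 0.17, adjusted p = 0.275), that between the effects 0.32 (SE 0.23, adjusted p = 0.497) and the average −0.60 (adjusted p = 0.00776). In that fit the fall in CD4 cells passed alone (adjusted p = 0.0141), with 4.71% of all genes called. ND6 lies next to ND5, which is transcribed from the other strand. Whether the ND6 probes separate the strands was not tested. ND5 differed by 0.29 in CD4 cells and −0.22 in nTregs, neither called.

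The other 9 mitochondrial genes did not show the ND6 pattern. ND3, a complex I subunit, was 11.92, 10.98 and 10.77 in nTregs with PBS and 10.79, 10.05 and 10.53 with AzaC, so the groups overlap, and the difference of −0.77 (SE 0.29, adjusted p = 0.199) had nTreg PBS 1 as its highest value and was −0.42 without it (adjusted p = 0.498). ND2 was 12.57, 11.93 and 11.88 with PBS and 11.64, 11.33 and 11.76 with AzaC in nTregs, without overlap, at −0.55 (SE 0.21, adjusted p = 0.199), or −0.33 without nTreg PBS 1 (adjusted p = 0.484). CYTB, the cytochrome b of complex III, was 12.71, 12.89 and 12.58 in CD4 cells with PBS and 13.33, 12.86 and 13.09 with AzaC, an overlap, at 0.37 (SE 0.13, adjusted p = 0.206). COX1, the catalytic subunit of complex IV, differed by 0.10 in nTregs and 0.09 in CD4 cells under AzaC. The rows for COX2 and for ATP6 with ATP8 carry several symbols, so the rule leaves them out. ND4L's row stands next to that of ATP6 with ATP8, both between rows of nuclear chromosome 1 genes and not with the other 9. Whether its values (differences of −0.55 in nTregs and 0.36 in CD4 cells, or −0.22 without nTreg PBS 1 and 0.07 without CD4 AZA 1) are of the mitochondrial gene was not tested.

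Other genes of the pathway were read from lists chosen for the respiratory chain and its supply. With AzaC each list had 1 gene called in nTregs, beside 2.02% of all genes. In CD4 cells 0 to 2 a list were called, beside 1.76%. Between populations, 1 to 4 a list were called under PBS, beside 8.01%, and 0 to 2 with AzaC, beside 6.75%. Among 11 regulators of mitochondrial biogenesis, Ppargc1a, a coactivator that drives it, rose in nTregs with AzaC by 0.93 (SE 0.20, adjusted p = 0.0277; adjusted p = 0.06 without nTreg PBS 1), and Pprc1, a relative, rose in CD4 cells by 0.69 (SE 0.12, adjusted p = 0.00781). Ppargc1a was dim, at 5.50, 5.50 and 5.72 in nTregs with PBS and 6.88, 6.11 and 6.53 with AzaC. In CD4 cells it was 5.58, 4.93 and 4.97 with PBS and 5.66, 5.39 and 5.32 with AzaC. Each of these values except 6.88 lay below the median signal of its array. With AzaC, Ppargc1b differed between populations by −0.66 (adjusted p = 0.00631), lower in nTregs. Tfam, which packages mitochondrial DNA, and Nrf1 were called in no comparison, with AzaC differences of 0.14 and −0.06 in nTregs and −0.13 and 0.01 in CD4 cells. The list's median was 0.01 in nTregs and −0.02 in CD4 cells.

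Of 17 genes for mitochondrial DNA replication and transcription, Tfb2m, a transcription initiation factor, rose in nTregs with AzaC by 0.67 (adjusted p = 0.0176). In CD4 cells it differed by 0.40 (adjusted p = 0.158), and its 2 AzaC effects did not differ by the test of their difference (0.27, SE 0.19, adjusted p = 0.452). Averaged over both populations it rose by 0.54 (adjusted p = 0.00446). None of the 17 was called in CD4 cells, and the polymerase Polrmt differed by 0.04 in nTregs and −0.15 in CD4 cells. Of 17 measured genes of mitochondrial RNA processing, Supv3l1, a helicase of RNA decay, rose in nTregs by 0.68 (adjusted p = 0.047; 0.52 and 0.113 without nTreg PBS 1). In CD4 cells Hsd17b10, part of mitochondrial RNase P, fell by 0.60 (adjusted p = 0.0204, and 0.105 without CD4 AZA 1) and Rexo2, which degrades short RNAs, rose by 0.49 (adjusted p = 0.0209).

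Of 16 measured mobile carriers and transporters, Slc25a33, a pyrimidine nucleotide carrier, fell with AzaC in nTregs by 1.15 (SE 0.17, adjusted p = 0.00267). It was higher in nTregs than CD4 cells by 2.25 with PBS and 1.24 with AzaC (adjusted p = 1.48e-06 and 0.000364). Cycs, cytochrome c, was not called, with 0.10 in nTregs and 0.27 in CD4 cells. Of 22 tricarboxylic acid cycle and pyruvate dehydrogenase genes, Suclg2 rose in nTregs by 0.75 (adjusted p = 0.00441), and Idh2 and Pdk1 fell in CD4 cells by 0.57 and 0.81 (adjusted p = 0.0368 and 0.0499, but 0.139 and 0.212 without CD4 AZA 1). None of the genes named from these lists had AzaC effects that passed the test of the difference between populations. Cs, citrate synthase, differed by 0.27 in nTregs and −0.04 in CD4 cells and was not called. Of the 46 measured assembly factors, 12 of them described above, 4 were called between populations under PBS, a share near the 8.01% of all genes. Among these, Cox10 and Uqcc1 were lower in nTregs (−0.71 and −0.55, adjusted p = 0.00404 and 0.0171).

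The remaining lists had medians with AzaC of 0.02 in nTregs and −0.08 in CD4 cells (mitochondrial DNA replication and transcription), 0.10 and 0 (RNA processing), 0.11 and −0.13 (carriers), 0.01 and −0.20 (tricarboxylic acid cycle) and 0.04 and −0.14 (assembly factors), beside −0.04 and 0.01 for all genes. Between populations under PBS, the biogenesis list had Pprc1 higher (0.45) and Gabpa lower (−0.43) in nTregs, with adjusted p of 0.0293 and 0.0196. Tefm, a mitochondrial transcription elongation factor, was higher (0.98, adjusted p = 0.0139) and Tfb2m lower (−0.56, adjusted p = 0.0186). Without nTreg PBS 1 the Tefm difference was 0.67 (adjusted p = 0.021). Rexo2 was higher (0.48) and the RNA methyltransferase Nsun4 lower (−0.55), with adjusted p of 0.00818 and 0.00337, and Idh2 was lower (−0.61, adjusted p = 0.0086). With AzaC, Ppargc1a (1.05, at the dim signals given above), Suclg2 (0.82) and Hsd17b10 (0.47) were higher in nTregs than in CD4 cells, with adjusted p of 0.00431, 0.000615 and 0.0303. The Hsd17b10 call was lost without CD4 AZA 1 (0.37, adjusted p = 0.145).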

How the data were processed

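RNA of 12 samples was measured on Affymetrix arrays (WT Pico labelling, per the labels). Per the submitters' processing notes, the authors' deposited log2 values come from RMA (Affymetrix Expression Console, versions not given), which corrects background, quantile normalizes across arrays and summarises probes; the values were used as deposited. The build the authors used was not given in the sources used here. Of 41345 rows, 23521 carry exactly 1 symbol, and the brightest row per gene left 22180 genes with no filter on dim genes. Group means were estimated over the 12 arrays by limma (version 3.58.1; R version 4.3.3; statmod version 1.5.0), with 8 residual degrees of freedom, and p-values were Benjamini-Hochberg adjusted over all genes; the number of arrays limits the precision. The script was tested on simulated data. The plan was to name all called genes, all mitochondrial genes and the isoforms of restricted tissue expression. It added per complex the smallest p and the highest signal, called genes of each list (up to 4), and 7 chosen pathway genes. Not all of these are described singly. Among those left out are ND1, ND4 and COX3, and Uqcrb and Atp5md, which had the highest signals of complexes III and V. Other named genes were chosen after their values were seen. The genes and lists were chosen with earlier results of these data known. Alternatives covered dim genes, normalization, rows, arrays left out, array weights, blocks and variance model.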

Additional observations from a re-analysis of the deposited data

Results flagged for a closer look

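Cox6b2, the testis isoform of complex IV subunit COX6B, responded differently to AzaC in the populations: the difference between its AzaC effects (nTregs minus CD4 cells) was −1.63 on the log2 scale, by limma's test of the interaction (adjusted p = 0.0292). It moved by −0.39 in nTregs and 1.24 in CD4 cells. It lay between −1.80 and −1.38 over 20 alternatives, 9 of which lost the call, each by leaving out 1 array. Without nTreg PBS 1 it was −1.38 and called, with −0.14 in nTregs.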

How the results depend on the processing

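No called value of a gene changed direction, but nuclear medians changed sign when an array was left out. The 2 nuclear genes called with AzaC in nTregs became 1 with arrays centred on their median, with quantile normalization repeated, with the groups compared alone and with the replicate number as a fixed block, 6 with array weights (5.82% of all genes called), and 1 to 2 with an array left out; the median of the nuclear genes was −0.08 to 0.12. Between populations under PBS, the 3 called became 8 when centred (9.01% of all genes), 1 with the groups alone (2.92%), 6 with weights (11.4%) and 1 to 5 with an array left out (median −0.04 to 0.15). With AzaC, the 1 called became 3 with the groups alone (10.6% of all genes), 5 with weights (15.8%) and 1 to 6 with an array left out. For the interaction, the 1 called became 3 with weights (1.81% of all genes) and 0 to 1 with an array left out, and the nuclear median of 0.06 became 0.19 when centred. The 0 mitochondrial genes called in CD4 cells became 1 (ND6) with the groups alone or with weights, and 0 to 1 with an array left out; between populations with AzaC they became 1 (CYTB) with weights, where the median was −0.39 to −0.11 with an array left out. The cause of these shifts was not tested, but array weights gave nTreg PBS 1 a weight of 0.19. The replicate numbers did not pair the samples: correlations of same-numbered deviations were −0.10 to 0.19 and 3 of 18 exceeded 0.1, and the random block's correlation was −0.00974. Of 4576 alternative values for 37 named genes, 4477 counted as unchanged. A called value had to keep its direction and call. An uncalled value had to stay uncalled and move by less than the SD within groups, whatever its sign. Cox6b2 in CD4 cells and Sdhaf1 in nTregs stayed called in all 21 alternatives.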

Other observations

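Among the 10 members measured by 2 rows, the dimmer row of Atp5h, the d subunit of complex V, was called where the brighter one was not. With every row as its own feature, an alternative chosen after seeing the data, it changed with AzaC in CD4 cells by −0.52 (log2; SE 0.11, adjusted p = 0.0363) and was lower in nTregs under PBS (−0.60, SE 0.11, adjusted p = 0.00533), against −0.25 and −0.04 for the brighter row. The dimmer row of Sdhaf1 differed by 0.32 with AzaC in nTregs (SE 0.14, adjusted p = 0.263) and by 0.31 between populations with AzaC (adjusted p = 0.217), so the rise called for Sdhaf1 rests on its brighter row. None of the 12 rows with several symbols that include a member, among them those of COX2 and of ATP6 with ATP8, was called.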
